A study of Mus musculus with 9 samples.

Results

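The genes described here encode the proteins of the cytoplasmic ribosome. They were taken from the raw count table as the symbols Rpl or Rps followed by a number, with an optional a, l or x, plus Rplp0, Rplp1, Rplp2, Rpsa and Fau, and pseudogene names were left out. Among the 52208 genes measured, 84 matched, and 77 of them had a mean of at least 10 CPM (counts per 1000000 counts of the library) over the 9 libraries. These 77 comprise 31 genes of the small subunit and 46 of the large subunit. The 7 that fell short were Rpl10l at 0 CPM, Rpl39l, Rps4l, Rpl3l, Rpl24, Rpl32l and Rps10, the last being nearest to the minimum at a mean of 5.23 CPM. Rpl6l was the nearest above it at 21.1 CPM. Rpl24 was at a mean of 0.481 CPM, and whether the counting of reads lowered Rpl24 and Rps10 was not tested. The rule used symbols and the mean CPM over all libraries, and no difference between groups. It was chosen with earlier results of these data known.

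Ribosomal proteins are made in matching amounts in every growing cell, where they join ribosomal RNA in the nucleolus to form the small subunit, which reads the messenger RNA, and the large subunit, which joins amino acids. Their mRNAs begin with a run of pyrimidines, the 5′ terminal oligopyrimidine tract (5′TOP), through which mTORC1 and the RNA-binding protein Larp1 control their translation. Messenger RNA levels, the quantity measured here, do not report on that translational step.

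The study measured messenger RNA by sequencing in 66cl4, an established mouse line of triple-negative breast cancer. Its question was how lowering Eya3, which encodes a member of the Eyes absent family with coactivator and phosphatase activity, and then adding an active NF-kB kinase, alter gene expression. Each of 3 groups had 3 biological replicates. Scramble cells carried the shScramble hairpin and the Empty Vector. In knockdown cells the Empty Vector was combined with the hairpin shEya3 KD2. In add-back cells that hairpin was combined with IKK2-SE, an always-active version of the kinase IKK2, which turns on NF-kB. All 3 groups went through transduction, puromycin selection and selection on mCherry expression. There was 1 Eya3 hairpin and no group with the scramble hairpin and IKK2-SE, so a change shared by both hairpin groups cannot be told apart from an off-target effect of that hairpin or from a difference between the transduced populations. Whether each replicate was transduced on its own is not stated, so p-values reflect no more than the spread among these cultures. In bulk RNA, a smaller share of cells of some type and less RNA per cell cannot be told apart.

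Library totals ran from 63601403 to 81534534 counts. Eya3 lay between 60.9 and 64.1 CPM in the scramble libraries and between 24.3 and 29.0 CPM in the 6 hairpin libraries. All 7 mesenchymal markers were at 1 CPM or more in every library, and of the epithelial markers Krt8 was high while Epcam, Cdh1, Cldn3 and Cldn7 were at or near 0 in each group. Marker lists of other cell types differed between groups. The macrophage list summed to between 35.5 and 37.3 CPM in scramble, 12.2 to 13.0 CPM in knockdown and 19.4 to 20.2 CPM in add-back libraries, although its defining members Ptprc and Adgre1 were near 0 throughout, and the lymphocyte list summed to at most 0.35 CPM. The endothelial list summed to 4.39 to 5.19 CPM in scramble, 0.21 to 0.45 CPM in knockdown and 0.62 to 0.98 CPM in add-back libraries. The epithelial sum, mostly Krt8, was 607 to 661, 1235 to 1364 and 1041 to 1113 CPM. The fibroblast sum was 51.5 to 53.7, 52.7 to 56.1 and 56.4 to 57.5 CPM, within which Col3a1 was at 0 in scramble and at 13.4 CPM on average in knockdown. The part of these in the results below was not tested.

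The ribosomal protein genes took more of the counts in both hairpin groups than in the scramble group. Together the 77 genes held 7.39%, 7.16% and 6.94% of all counts in the scramble libraries, with a mean of 7.17% ± 0.225 (SD, n = 3). They held 7.87%, 7.60% and 7.58% in the knockdown libraries, a mean of 7.68% ± 0.165 (SD, n = 3). In the add-back libraries the share was 8.06%, 7.49% and 7.56%, a mean of 7.70% ± 0.309 (SD, n = 3). All 6 hairpin libraries lay above the 3 scramble libraries, and knockdown and add-back libraries overlapped. Small subunit genes held 2.87%, 3.05% and 3.08% on average in scramble, knockdown and add-back libraries, and large subunit genes held 4.30%, 4.63% and 4.62%. The ratio of large to small subunit counts was 1.501 ± 0.005, 1.517 ± 0.005 and 1.502 ± 0.012 (SD, n = 3) in the same order. The knockdown ratio was higher than the scramble ratio by more than the spread, and the add-back ratio lay within it. Counts of mitochondrially encoded genes, which track RNA quality, made up 1.20% ± 0.046, 1.19% ± 0.240 and 1.26% ± 0.202 (SD, n = 3), and with those counts left out of the total the ribosomal protein share was 7.26%, 7.78% and 7.80%. No test was run on the shares.

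**Figure D1:**
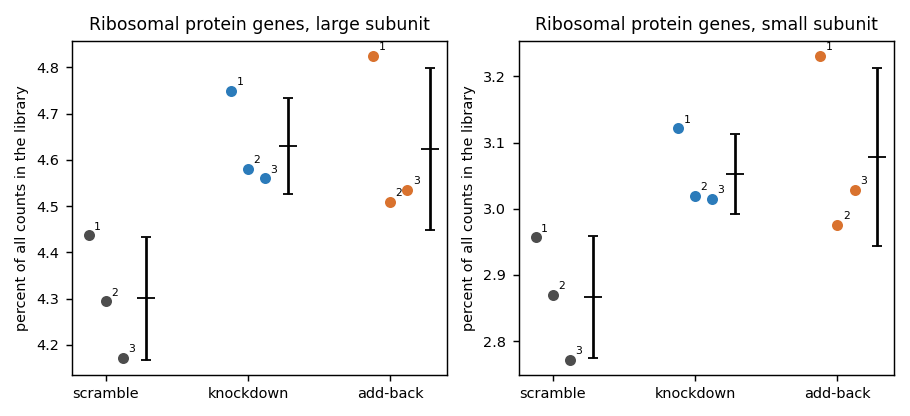
Percent of all counts in each library that fell on large subunit (left) and small subunit (right) ribosomal protein genes, with the replicate number beside each point and the mean ± SD of 3 libraries in black. The vertical axes do not start at 0. Every knockdown and add-back library lies above every scramble library in both panels, and the library numbered 1 is the highest in each group.

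The first question was how the members changed when Eya3 was lowered. Counts were scaled by the trimmed mean of M-values (TMM) and tested with edgeR's quasi-likelihood test over 16766 genes, and a gene was called at a Benjamini-Hochberg adjusted p under 0.05. Of the 77 members, 40 were higher in knockdown than in scramble, which is 51.9% of them, against 27.7% of all tested genes. A further 4 were lower, where 29.9% of all tested genes were, and 33 were not called. In all, 57.1% of the members were called, close to the 57.5% of all tested genes. Against that background the members stood out in the direction of their calls and not in how often they were called. That background also holds genes at lower levels than the members, which all had a mean of at least 10 CPM. In a fit of genes with a mean of at least 1 CPM, 8149 of 11995 were called, 4037 of them higher. In that fit 39 members were higher and 4 lower. The median log2 change of the members was 0.12, beside 0.00 over all tested genes. With library totals in place of TMM it was 0.07, beside -0.05. Changes ran from -0.34 for Rps15 to 0.76 for Rpl36. The direction split depended on scaling too. With TMM 90.9% of the called members were higher, and with library totals 27 were higher and 7 lower, or 79.4% higher. The split over all tested genes moved the same way. Of the genes called, 4636 of 9643 were higher with TMM and 4064 of 9656 with library totals. Ranges of the 2 groups did not overlap for 44 members that were higher and 5 that were lower, while 30.6% and 33.0% of all tested genes did so.

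By subunit, 17 of 31 small subunit genes rose and 4 fell, and their median log2 change was 0.12. Of 46 large subunit genes 23 rose and none fell with edgeR, and none of the 46 was lower at an unadjusted p under 0.05, with DESeq2 or with limma voom. The large subunit median was 0.10. All 4 falls were therefore small subunit genes in these fits; whether the subunits differ was not tested. The members moved by unlike amounts. Within 0.1 log2 of the members' median lay 41 of the 77, within 0.2 lay 57 and within 0.3 lay 68.

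The 6 largest rises were Rpl36, Rps2, Rpl5, Rpl34, Rpl9 and Rps18, each at or above 0.5 on the log2 scale. Rpl36 (chr17:56613416-56614243, plus strand, GRCm38) encodes a protein of the large subunit. Its level was 519, 507 and 463 TMM-scaled CPM in the scramble libraries, 904, 806 and 812 in the knockdown libraries and 878, 767 and 715 in the add-back libraries. The lowest hairpin library lay far above the highest scramble library, while the hairpin groups overlapped. Rpl36 rose by 0.76 ± 0.07 (SE) in knockdown against scramble (edgeR adjusted p = 4.38e-07).

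Rpl5 (chr5:107900502-107909005, plus strand) binds 5S ribosomal RNA together with Rpl11, and the particle they form holds the p53 regulator Mdm2 when ribosome assembly is disturbed. Rpl5 was at 1261, 1221 and 1212 CPM in scramble, 1938, 2017 and 2083 CPM in knockdown, and 1965, 1915 and 1951 CPM in add-back libraries. The scramble libraries were all lower than the hairpin libraries, and the latter overlapped. The change was 0.71 ± 0.04 (SE, edgeR adjusted p = 6.58e-11). Its partner Rpl11 moved much less in the same libraries. Rpl11 lay at 942, 926 and 949 CPM in scramble and at 963, 1006 and 995 CPM in knockdown libraries, which did not overlap, with a change of 0.07 ± 0.03 (SE) that was not called (edgeR adjusted p = 0.0767). Rpl11 was called higher with DESeq2 (adjusted p = 0.0415) and with the replicate number as a block (edgeR adjusted p = 0.0204). It was also called without knockdown replicate 1 (edgeR adjusted p = 0.0383).

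Rps2 (chr17:24718116-24721929, plus strand) sits beside the channel through which mRNA enters the small subunit. It was at 743, 754 and 713 CPM in scramble, 1221, 1264 and 1176 CPM in knockdown, and 1145, 1087 and 1079.8 CPM in add-back libraries. All 3 groups were separate, with add-back between the others and nearer to knockdown. Its rise over scramble was 0.73 ± 0.04 (SE, edgeR adjusted p = 1.39e-10). Rps2 has near-identical copies, and reads of the gene and its copies may not be told apart. Its 12 pseudogene rows held 122.7% as many counts as Rps2 itself, and summed to 894, 1487 and 1366 CPM on average in scramble, knockdown and add-back libraries. With those rows added to Rps2 the change was 0.76 (edgeR adjusted p = 2.43e-11).

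Rpl34 (chr3:130726831-130730398, minus strand) and Rpl9 (chr5:65388364-65391444, minus strand) are large subunit proteins. Rps18 (chr17:33951999-33956001, minus strand) lies in the head of the small subunit. Rpl34 was at 414, 406 and 372 CPM in scramble, 646, 569 and 588 CPM in knockdown, and 655, 564 and 575 CPM in add-back libraries, a rise of 0.60 ± 0.06 (SE, edgeR adjusted p = 4.9e-07). Rpl9 was at 934, 864 and 801 CPM in scramble, 1368, 1187 and 1240.4 CPM in knockdown, and 1330.3, 1134 and 1157 CPM in add-back libraries, a rise of 0.55 ± 0.07 (SE, edgeR adjusted p = 1.35e-05). For both genes the hairpin libraries overlapped one another and cleared every scramble library. Rps18 was at 539, 513 and 481 CPM in scramble, 765, 709 and 703 CPM in knockdown, and 758, 672 and 686 CPM in add-back libraries. It rose by 0.51 ± 0.05 (SE, edgeR adjusted p = 3.86e-07), and the hairpin libraries again formed a single range above scramble. The pseudogene rows of Rps18 held 32.8% as many counts as the gene, and pooling them left its change at 0.50.

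The falls were led by Rps15 (chr10:80292453-80294114, plus strand), a protein of the small subunit head. Rps15 was at 1438, 1390.4 and 1386 CPM in scramble, 1128, 1129 and 1083 CPM in knockdown, and 1137, 1088 and 1059.7 CPM in add-back libraries. Each hairpin library was below each scramble library, and the change was -0.34 ± 0.04 (SE, edgeR adjusted p = 8.49e-07). Rps16 (chr7:28350652-28353155, plus strand), whose tail reaches towards the transfer RNA in the P site, was at 1154, 1111 and 1067 CPM in scramble, 934, 917 and 923 CPM in knockdown, and 952, 918 and 913 CPM in add-back libraries. It fell by 0.26 on the log2 scale (edgeR adjusted p = 1.17e-05), again with no overlap between scramble and hairpin libraries.

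Rps26 (chr10:128624534-128626747, minus strand) lines the exit of the mRNA channel. It was at 1389, 1354 and 1365 CPM in scramble, 1137, 1211 and 1178 CPM in knockdown, and 1154, 1164 and 1213 CPM in add-back libraries. The hairpin groups interleaved and stayed below scramble, and the change was -0.22 ± 0.04 (SE, edgeR adjusted p = 6.35e-05). Rps20 (chr4:3831334-3835665, minus strand), also of the head, was at 1238, 1279 and 1168 CPM in scramble and 1150.0, 1087 and 1036 CPM in knockdown libraries, which came close without overlapping. Rps20 fell by 0.17 on the log2 scale (edgeR adjusted p = 0.00832), and the call was lost without scramble replicate 2 (adjusted p = 0.0613) or knockdown replicate 3 (adjusted p = 0.0606).

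**Figure D2:**
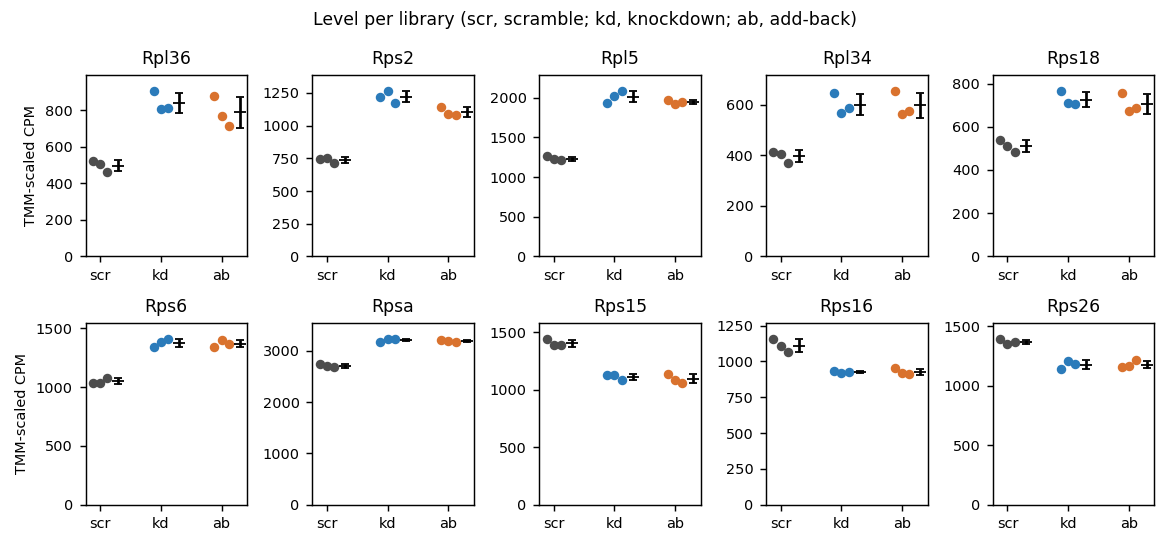
TMM-scaled CPM of 10 ribosomal protein genes in each library, in replicate order, with the mean ± SD of 3 libraries in black; the axes start at 0 and differ between panels. The first 7 genes were higher in all hairpin libraries than in any scramble library, and Rps15, Rps16 and Rps26 were lower.

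Around the mRNA channel of the small subunit, 5 of 7 listed genes rose and 1, Rps26, fell. Over all tested genes 27.7% rose and 29.9% fell. Rps14 rose by 0.40 ± 0.08 (SE, edgeR adjusted p = 0.0016), from 578, 550.0 and 492 CPM in scramble to 775, 664 and 696 CPM in knockdown libraries. Rps28 rose by 0.34 ± 0.05 (SE, edgeR adjusted p = 6.3e-05). Rps3, which also binds the NF-kB subunit RelA, rose by 0.09 ± 0.04 (SE, edgeR adjusted p = 0.0448), from 1356, 1389 and 1309.6 to 1432, 1433 and 1453 CPM. That call sat at the threshold and was lost with library totals (adjusted p = 0.344), with a filter at a mean of 1 CPM (adjusted p = 0.0551) and on leaving out scramble replicate 1 or 3 or knockdown replicate 1, 2 or 3 (adjusted p from 0.0594 to 0.163).

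Fau is made as a fusion of a ubiquitin-like protein with a small subunit protein, and Rps27a as a fusion with ubiquitin. Fau was at 565, 543 and 504 CPM in scramble, 599.8, 582 and 585 CPM in knockdown, and 588, 535 and 521 CPM in add-back libraries. The knockdown libraries were above scramble and the add-back libraries overlapped both; the rise in knockdown was 0.13 ± 0.05 (SE, edgeR adjusted p = 0.0279), lost with library totals (adjusted p = 0.145) and without scramble replicate 3 (adjusted p = 0.138) or knockdown replicate 1 (adjusted p = 0.0667). Rps27a was not called at 0.07 ± 0.06 (SE, edgeR adjusted p = 0.378).

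The acidic stalk of the large subunit, which recruits the elongation factors, is built on Rplp0 with Rplp1 and Rplp2. Rplp0 rose by 0.15 ± 0.05 (SE, edgeR adjusted p = 0.00736), from 2037, 1969.9 and 1839 CPM to 2273, 2089 and 2142 CPM. Rplp1 rose by 0.11 ± 0.04 (SE, edgeR adjusted p = 0.0404), a call lost with library totals (adjusted p = 0.239) and on leaving out scramble replicate 2 or 3 or knockdown replicate 1 or 2 (adjusted p from 0.0657 to 0.171). Rplp2 was at 0.01 ± 0.05 (SE, edgeR adjusted p = 0.838), with groups that overlapped. Around the exit of the peptide tunnel 4 of 8 listed large subunit genes rose, by 0.10 for Rpl22 to 0.36 for Rpl17, the other 2 being Rpl23a and Rpl31. In the same comparison 27.7% of all tested genes rose.

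Rpl22, a large subunit protein that binds RNA outside the ribosome too, was at 447, 444 and 439 CPM in scramble, 478, 474 and 469 CPM in knockdown, and 466, 449 and 445 CPM in add-back libraries. The spread within groups was small, so a rise of 0.10 ± 0.03 (SE) passed the test (edgeR adjusted p = 0.0213), though not with library totals (adjusted p = 0.232) or without scramble replicate 2 (adjusted p = 0.0532) or 3 (adjusted p = 0.0602). Rps6, the substrate of S6 kinase that is read as a sign of mTORC1 activity when phosphorylated, rose from 1039, 1036 and 1077 to 1341, 1387 and 1406 CPM, and stood at 1341, 1397 and 1367 CPM in add-back libraries. The change in knockdown was 0.39 ± 0.04 (SE, edgeR adjusted p = 7.09e-08), with every hairpin library above scramble.

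Rpsa, the laminin receptor precursor of the small subunit, had the highest CPM among the members. It was at 2755, 2705 and 2682 CPM in scramble, 3184, 3225 and 3226 CPM in knockdown, and 3222, 3193 and 3175 CPM in add-back libraries. These ranges did not overlap between scramble and hairpin libraries, and the change was 0.24 ± 0.03 (SE, edgeR adjusted p = 5.4e-06). Members with roles that are often studied on their own were not all called in the main fit. Rps19, mutated in Diamond-Blackfan anaemia, was at -0.11 ± 0.07 (SE, edgeR adjusted p = 0.233). Rpl10, which joins the large subunit last, was at 0.04 ± 0.09 (SE, edgeR adjusted p = 0.763), and Rpl13a, a translational silencer outside the ribosome, was at 0.03 ± 0.05 (SE, edgeR adjusted p = 0.645). Without knockdown replicate 1 Rpl13a was called higher (edgeR adjusted p = 0.0421). The other 34 members that rose lay between 0.09 for Rps3 and 0.40 for Rps14, and the 33 not called lay between -0.11 for Rps19 and 0.21 for Rps27.

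Levels between genes were compared per kilobase of transcript, in the 76 members with a transcript length. In scramble libraries the lowest was Rpl13a at 84.5 CPM per kilobase, the median member was at 1141 and the highest was Rplp1 at 4426. From the 10th to the 90th percentile the levels ran from 578.5 to 1967 CPM per kilobase. The low value of Rpl13a came with 88.4, 87.2 and 89.7 CPM in the scramble libraries, and the transcript lengths were taken from the annotation and may not be the ones used in these cells.

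**Figure D3:**
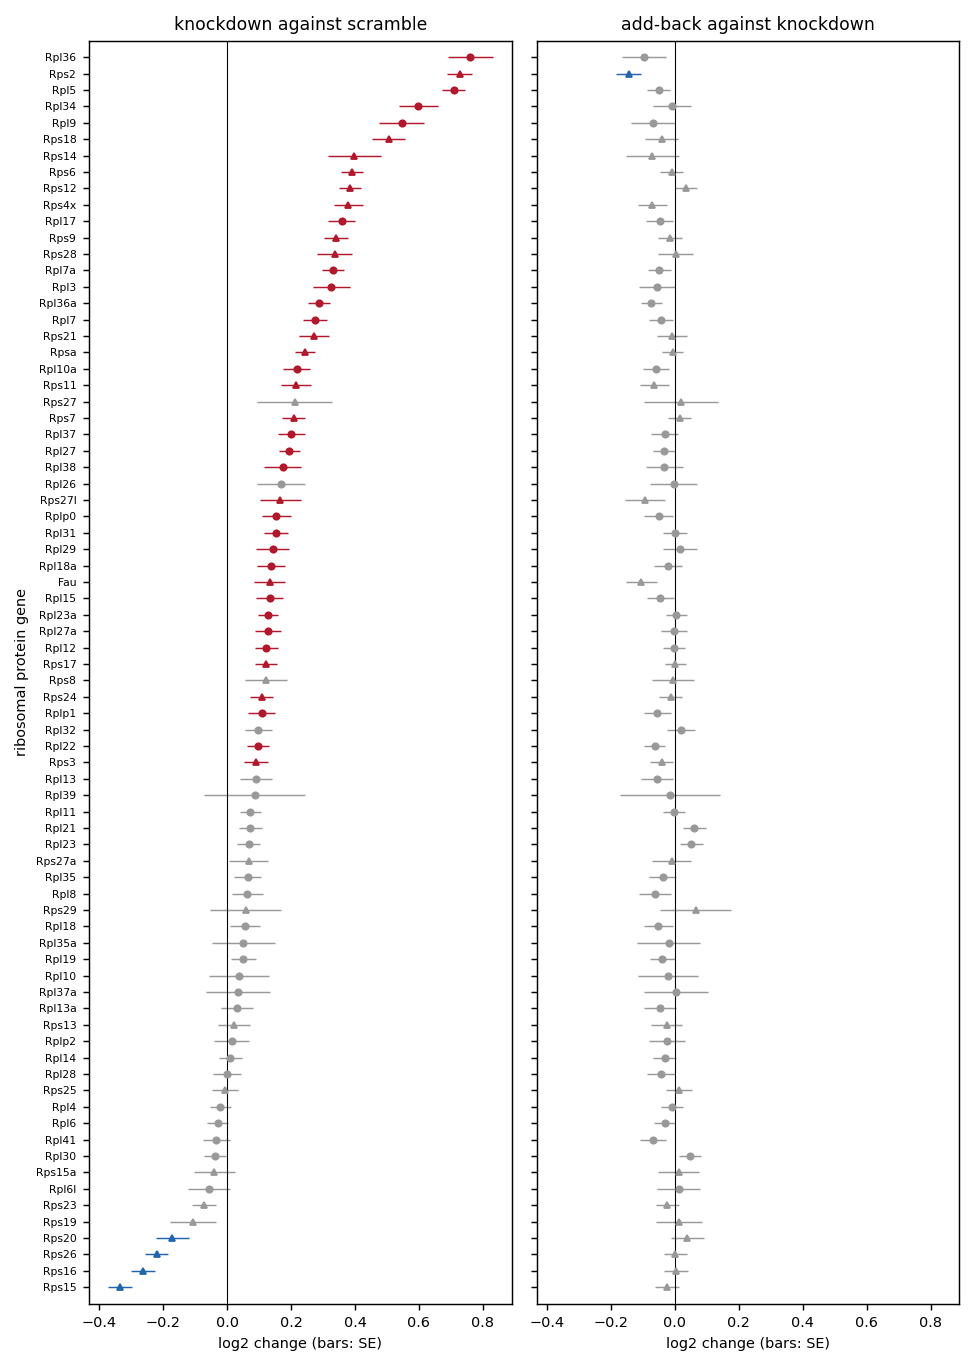
Log2 change (horizontal axis) with SE bars of 76 of the ribosomal protein genes, ordered by knockdown against scramble, with add-back against knockdown on the same scale at the right. Circles are large and triangles small subunit genes; red was called higher, blue called lower and grey not called. The left panel runs from -0.34 to 0.76, and in the right panel all of them lie between -0.14 and 0.07 with Rps2 the single call.

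The second question was whether IKK2-SE moved the members in cells that kept the Eya3 hairpin. The count of members higher in add-back than in knockdown was 0 with edgeR, where 5.61% of all tested genes were higher, and 1 was lower, where 4.82% of all tested genes were. At an unadjusted p under 0.05 there were 0 higher and 3 lower, against 11.5% and 10.5% of all tested genes, and DESeq2 and limma voom each called 0 higher and 1 lower. The median change was -0.02, with 56 members below 0 and 21 above, and all changes lay between -0.14 and 0.07. Over all tested genes 10.4% were called in this comparison. The member called lower was Rps2, at -0.14 ± 0.04 (SE, edgeR adjusted p = 0.0265). That call was lost with library totals (adjusted p = 0.0661), in a fit of the 2 groups alone (adjusted p = 0.0515), and without knockdown replicate 1 or 2 or add-back replicate 2 or 3 (adjusted p from 0.0687 to 0.159). With the pseudogene rows added to Rps2 the edgeR adjusted p was 0.0155.

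Libraries of knockdown and add-back did not overlap for 8 members, against 12.8% of all tested genes that were higher and 11.9% that were lower. Rpl21 and Rpl23 were higher in add-back, and Rpl22, Rpl27, Rpl36a, Rpl6, Rpl7a and Rps2 were lower. Rpl36a, at 627, 602 and 618 CPM in knockdown and 593, 581 and 581 CPM in add-back libraries, was among the larger of these, at -0.07 (edgeR adjusted p = 0.222). Of these 8 only Rps2 passed the test. Standard errors of the members ran from 0.03 to 0.16 with a median of 0.04, so shifts of a few hundredths on the log2 scale were not detectable.

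The third comparison set add-back against scramble, and it shares the scramble libraries with the first. In it 35 members were higher, against 27% of all tested genes, and 5 were lower, against 28.7%. Ranges did not overlap for 38 members that were higher and 5 that were lower, against 29.6% and 31.5% of all tested genes. The values are given beside those of the first comparison with no test of their likeness, since the controls are shared. The median change was 0.12. By subunit, 14 of 31 small subunit genes rose and 5 fell, and 21 of 46 large subunit genes rose. With edgeR 0 large subunit genes fell, and 1 was lower at an unadjusted p under 0.05, with DESeq2 and with limma voom.

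Rpl36 was 0.66 above scramble in add-back cells, Rpl5 0.66, Rpl34 0.59, Rps2 0.58, Rpl9 0.48 and Rps18 0.46, which were the 6 largest rises. The falls were Rps15 at -0.36, Rps16 at -0.26, Rps26 at -0.22, Rps20 at -0.13 and Rps23 at -0.10. Rps23 shapes the decoding centre. It was at 1132, 1092 and 1064 CPM in scramble and 1054, 1020.5 and 1004 CPM in add-back libraries, which did not overlap, and the edgeR adjusted p was 0.0384. That call was lost in the fit of the 2 groups alone (adjusted p = 0.0744), with pseudogene rows pooled (adjusted p = 0.0526) and on leaving out scramble replicate 1 or 2, knockdown replicate 1, 2 or 3, or add-back replicate 2 or 3 (adjusted p from 0.0562 to 0.192). The call of Rps20 (adjusted p = 0.0361) was lost on leaving out scramble replicate 1 or 2, knockdown replicate 2, or add-back replicate 2 or 3 (adjusted p from 0.0638 to 0.192). The stalk genes were not called in this comparison, and the edgeR adjusted p of Rplp0 was 0.0601. Rplp0 was called higher in 8 of 19 alternatives, among them limma voom (adjusted p = 0.0496), the fit of the 2 groups alone (adjusted p = 0.0497), the replicate block (adjusted p = 0.00227) and the fits without scramble replicate 1 (adjusted p = 0.028) or knockdown replicate 1 (adjusted p = 0.035).

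Members differed from their group mean together, library by library. In the scramble library numbered 1, 71 of 77 members were above the group mean and in library 3 only 8 were. In knockdown library 1 it was 58, and in add-back library 1 it was 71, with 11 and 12 in the other two. The median deviation of the members in the libraries numbered 1 was 0.05, 0.05 and 0.07 on the log2 scale in scramble, knockdown and add-back, while that of all tested genes was at most 0.01 in size in each library. The library numbered 1 was the highest of its group in all 3 groups for 51 members, and for 8 of the 9 members with the largest SE. Rpl39, whose SE was the largest at 0.16, shows it. Its level was 290.2, 279.5 and 229 CPM in scramble, 333, 261 and 253 CPM in knockdown, and 338, 249 and 252 CPM in add-back libraries. Rps27, at 549, 508 and 457, then 664, 542 and 545, then 686, 556 and 534 CPM, had the same shape, and its change of 0.21 ± 0.12 (SE) was not called (edgeR adjusted p = 0.154).

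**Figure D4:**
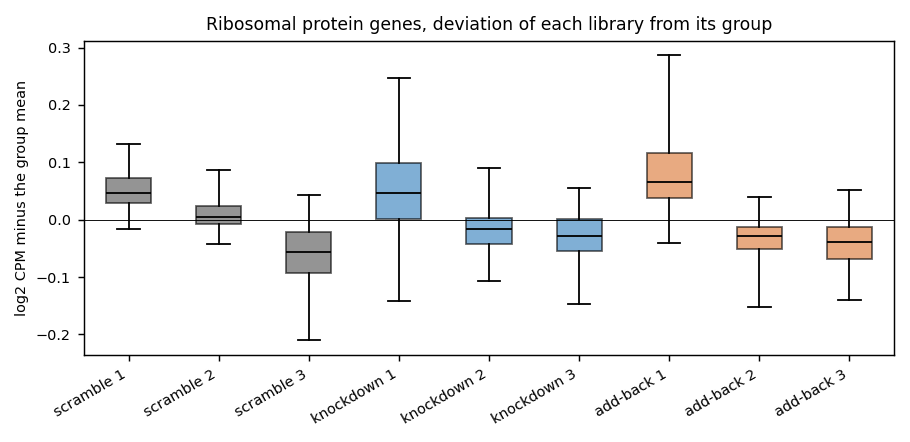
Deviation of log2 TMM-scaled CPM from the mean of the group, for the 77 ribosomal protein genes in each library. Boxes span the quartiles with the median as a line, and whiskers reach the lowest and highest member. The medians of the libraries numbered 1 are above 0 in every group, at 0.05, 0.05 and 0.07.

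The members are spread over 20 chromosomes, and their changes went with those of the genes around them. For each member the 20 nearest tested genes on each side that are not ribosomal protein genes were taken. Over the 77 members the knockdown change and the median change of the neighbours had a Pearson correlation of 0.68 and a Spearman correlation of 0.55, given as a description, since members that lie close together share neighbours and all values come from the same libraries. Where the neighbour median was -0.15 or lower, 5 of 16 members rose and 3 fell, with a median of 0.01. Where it lay between, 23 of 47 rose and 1 fell, with a median of 0.11. Where it was 0.15 or higher, 12 of 14 rose and none fell, with a median of 0.39. The neighbours of the 3 most reduced members were reduced more than the members, with medians of -0.68 around Rps15, -0.48 around Rps16 and -0.49 around Rps26. Around the genes with large rises the neighbours were higher too, with medians of 0.43 at Rpl34, 0.31 at Rpl9, 0.28 at Rps2, 0.24 at both Rpl36 and Rpl5, and 0.08 at Rps18.

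Set against its neighbours, a member was higher than their median in 68 of 77 cases, by a median of 0.17 on the log2 scale, and the SD over members was 0.16 for that difference against 0.21 for the change itself. Rps9 rose by 0.34 among neighbours at -0.18, and Rpsa by 0.24 among neighbours at -0.16. Rps12 rose by 0.38 on chromosome 10 among neighbours at -0.12. On that chromosome 1 of 5 members rose and 2 fell, with a median of -0.06 beside -0.36 for the other 784 tested genes there. On chromosome 17 all 5 members rose, Rpl36, Rps2, Rps18, Rps28 and Rpl10a, with a median of 0.51 beside 0.31 for the other 763 tested genes. In add-back against scramble the correlation with the neighbours was 0.69 and 68 members were above them, and in add-back against knockdown it was 0.24 and 27 were above. Which difference between the populations goes with these regional shifts was not tested.

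**Figure D5:**
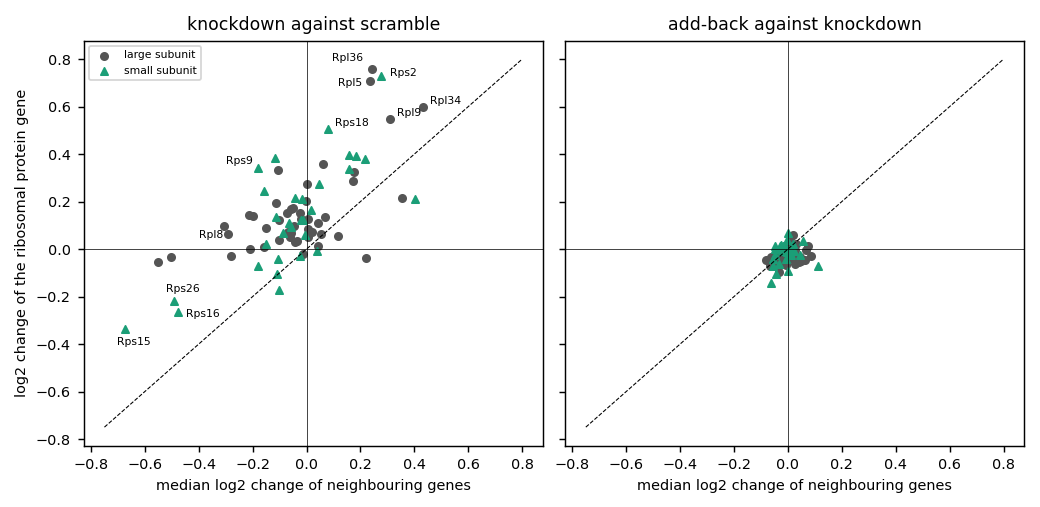
Log2 change of each ribosomal protein gene (vertical axis) against the median log2 change of up to 40 neighbouring genes (horizontal axis), for knockdown against scramble at the left and add-back against knockdown at the right. Circles are large and triangles small subunit genes, and the dashed line marks equal change. In the left panel 68 of 77 points lie above the line, and in the right panel all lie near 0.

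The annotated start sites of some members lie at the tract by which these mRNAs are known. RefSeq promoters of GRCm38.p6 were found for 56 of the 77 members. The windows below hold 10 bases before and 20 from the annotated start, chosen to set members that rose beside members that fell; capitals mark the longest run of pyrimidines in the window. That run had at least 6 bases in 36 of the 56 members and was shorter in 20. Rps18 and Rps6 rose, Fau rose slightly, and Rps26 fell, and all of these have a long run near the start. Rps2 rose and Rps15 fell, and the longest run was 6 bases in the window of Rps2 and 3 in that of Rps15. The window of Rps15 ends upstream of the gene position given above, so it may miss the start used in these cells. The windows of Rps2, Rps18 and Rps26 lie wholly inside the gene positions given above, so they may miss that start too. Rps18 is at chr17:33955646-33955675 (minus strand), Rps6 at chr4:86857348-86857377 (minus), Fau at chr19:6057937-6057966 (plus), Rps26 at chr10:128626487-128626516 (minus), Rps2 at chr17:24720053-24720082 (plus) and Rps15 at chr10:80292421-80292450 (plus).
Rps18: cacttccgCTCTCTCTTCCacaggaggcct
Rps6: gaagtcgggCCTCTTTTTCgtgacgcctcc
Fau: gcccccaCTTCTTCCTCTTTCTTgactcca
Rps26: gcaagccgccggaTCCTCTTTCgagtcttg
Rps2: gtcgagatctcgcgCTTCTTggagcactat
Rps15: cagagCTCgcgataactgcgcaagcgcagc

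The runs are 11, 10, 16, 9, 6 and 3 bases long in that order. A run of at least 6 pyrimidines on the transcribed strand, within 20 bases before to 30 after the start, was present in 82.1% of the 56 members, in 43.0% of the 32851 promoters in the table and in 45.5% of the promoters of 10692 other tested genes. CTTTC, searched on both strands in the same window, was present in 41.1% of members and 12.5% of all promoters, and it can lie within a pyrimidine run. CGGAAG, searched on both strands of the 300 bases from 250 before to 50 after the start, was present in 67.9% of members, 16.9% of all promoters and 33.9% of those of other tested genes. Its other strand, CTTCCG, can overlap a pyrimidine run. TATAAA, on both strands of those 300 bases, was present in 10.7% of members, 13.6% of all promoters and 9.4% of those of other tested genes.

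Members were also split by these letters in knockdown against scramble. There 40 of all 77 members rose and 4 fell, and 27.7% and 29.9% of all tested genes did. Of the 46 members with a run of at least 6 pyrimidines 22 rose and 2 fell, with a median of 0.12. Of the 10 without such a run 7 rose and 1 fell, with a median of 0.15. With CTTTC on either strand 11 of 23 rose, and without it 18 of 33 did. With CGGAAG 19 of 38 rose and 3 fell, and without it 10 of 18 rose. With TATAAA 5 of 6 rose, with a median of 0.22, and without it 24 of 50 rose and 3 fell, with a median of 0.10. These are letters in a window and no measure of binding or of use of the start, and the differences were not tested.

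Near-identical copies and overlapping genes limit some members. Pseudogene rows took 0.214%, 0.296% and 0.283% of all counts in scramble, knockdown and add-back libraries. Apart from Rps2 and Rps18, they held 25.1% as many counts as Rpl3 and 12.7% as many as Rps7. With the pseudogene rows pooled with their parents, 40 members were again higher and 4 lower in knockdown. The rows of Rps10, outside the CPM minimum, held 464.6% as many counts as the gene. Introns of 29 members hold 56 small nucleolar RNAs on the same strand, and 22 members overlap another gene. Rpl5 overlaps Fam69a, Rps2 overlaps Snhg9 and Rps18 overlaps Vps52, each on the other strand, and reads of the partners cannot be told apart where counting did not use strand.

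Paralogs gave values of their own. Rps27l, a paralog of Rps27 known as a p53 target, was at 55.5, 53.4 and 48.2 CPM in scramble, 60.7, 55.8 and 59.6 CPM in knockdown, and 60.6, 52.9 and 51.4 CPM in add-back libraries. The knockdown libraries lay narrowly above scramble, and the rise of 0.17 ± 0.06 (SE, edgeR adjusted p = 0.0351) was lost with library totals (adjusted p = 0.126) and on leaving out scramble replicate 2 or 3 or knockdown replicate 1 or 3 (adjusted p from 0.0526 to 0.163). The paralogs Rpl3l, Rpl10l, Rpl39l and Rps4l were at or near 0. Of 11 tested ribosomal protein genes, paralogs and copies outside the selection, 5 rose in knockdown, where 27.7% of all tested genes did. The 11 include the pseudogene row Rpl9-ps6. Rpl7l1 rose by 0.36 (edgeR adjusted p = 2.19e-07), beside 0.28 for Rpl7. Rps27rt, a copy of Rps27 at 16.3 CPM in scramble, rose by 0.40 (edgeR adjusted p = 1.52e-05).

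Other genes of the translation pathway moved in both directions. Of 21 tested genes with 5′TOP mRNAs outside the ribosome 10 rose and 6 fell in knockdown against scramble, with a median of 0.07. Of all tested genes 27.7% rose and 29.9% fell. Hnrnpa1, a splicing regulator, rose by 0.99 (edgeR adjusted p = 2.9e-11), Gas5, a noncoding host of small nucleolar RNAs, rose by 0.41 (edgeR adjusted p = 2.78e-08), and Btf3, a subunit of the nascent polypeptide complex, fell by 0.48 (edgeR adjusted p = 4.53e-09). In add-back against knockdown 3 of these 21 were lower, against 4.82% of all tested genes.

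Of 15 genes of mTORC1 and its Larp1 branch 8 rose and 2 fell in knockdown, where 27.7% and 29.9% of all tested genes did. The falls numbered 5 with library totals and 4 with the replicate block. Deptor, an inhibitor within the mTOR complexes, rose from 14.5 ± 1.03 to 72.5 ± 2.27 CPM (SD, n = 3), a log2 change of 2.32 (edgeR adjusted p = 6.66e-15). Rheb, the activator of mTORC1, rose by 0.56 (edgeR adjusted p = 4.45e-10) and the subunit Mlst8 by 0.55 (edgeR adjusted p = 3.86e-08). Inhibitors and activators thus rose together within the list.

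Of 13 tested chaperones and importers that escort single ribosomal proteins 6 rose and 3 fell, where 27.7% and 29.9% of all tested genes did. Pdcd2l fell by 0.46 (edgeR adjusted p = 1.14e-05), Nap1l1 fell by 0.29 (edgeR adjusted p = 0.000137) and Ipo9 rose by 0.25 (edgeR adjusted p = 1.99e-05). In the p53 arm of the response to nucleolar stress, to which the Rpl5 and Rpl11 particle belongs, 8 of 11 genes rose and 2 fell. The same 27.7% and 29.9% of all tested genes apply here. Cdkn1a, the cell cycle inhibitor, rose by 0.88 (edgeR adjusted p = 1.76e-09), Zmat3 by 0.84 (edgeR adjusted p = 2.49e-10) and the apoptosis gene Bbc3 by 0.65 (edgeR adjusted p = 2.55e-07). The falls, named after their values were seen, were Trp53 at -0.21 and Mdm2 at -0.39. In add-back against knockdown 3 of the 11 were lower, against 4.82% of all tested genes.

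Mitochondrial ribosomal proteins, which are built into a separate ribosome, served as the nearest comparison set. Of 77 tested genes 30 rose and 23 fell in knockdown, where 27.7% and 29.9% of all tested genes did. The mitochondrial median was 0.02, beside 0.12 for the cytoplasmic members. With library totals the balance turned, to 24 higher and 29 lower, where 4064 of the 9656 called genes were higher. Without knockdown replicate 3 the falls numbered 15. Mrps21 rose by 0.65, Mrpl9 rose by 0.57 and Mrpl24 fell by 0.76. They held 0.383%, 0.375% and 0.376% of all counts in scramble, knockdown and add-back libraries, while the share of the cytoplasmic members went from 7.17% to 7.68% and 7.70%. The difference between the sets was not tested. Where 29.9% of all tested genes fell in knockdown, 1 of 9 genes that track RNA quality did, Malat1 at -0.51 (edgeR adjusted p = 0.00995). That count was 3 with library totals or with the replicate block, 4 without scramble replicate 3 and 2 without scramble replicate 2 or knockdown replicate 3. The mitochondrial transcripts mt-Atp6 at -0.27 (edgeR adjusted p = 0.0544) and mt-Co3 at -0.29 (edgeR adjusted p = 0.0622) were called lower in 6 and 5 of the 19 alternatives.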

How the data were processed

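The authors deposited a table of raw, unnormalized counts, with gene symbols in rows and the 9 libraries in columns. Messenger RNA libraries were made from column-purified RNA, per the labels' protocols. The tools named are FastQC, MultiQC and STAR, with the build mm10, per the submitters' processing notes. How reads were counted, with which annotation and with what strand setting, is not given in the sources used here. Columns of the hairpin libraries carry KD3 where the titles say KD2, and were matched on arm and replicate number, so which hairpin was used is not certain.

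Genes with enough counts (at least 10 in enough libraries and 15 in all, by filterByExpr with the groups) numbered 16766, and all 77 members passed. Counts were scaled with TMM and fitted with edgeR 4.0.16 in R 4.3.3 (robust quasi-likelihood, group as the only term, all 9 libraries, 6 residual degrees of freedom), with Benjamini-Hochberg adjustment over all tested genes. The SE is the log2 change divided by the square root of F. The procedure was tested on simulated data with few changed genes of random direction. That test does not cover changes as widespread as those found here. DESeq2 1.42.0, limma 3.58.1 (voom), other scalings and filters, a replicate block, leaving out each library and pooling pseudogene rows (added after seeing the data) were alternatives. Counts of replicates within a group differed by more than sampling noise, so none was taken as a repeat. Positions and lengths are from GENCODE on GRCm38, and start-site sequences from RefSeq GRCm38.p6. Depth per library was 63601403 to 81534534 counts.

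The members, lists and tests were chosen with earlier results of these data known. Members were named if they had 1 of the 6 largest rises or falls among called members in a comparison, belonged to the 5S, stalk, fusion, channel or paralog lists, were Rps3, Rps6, Rps19, Rpsa, Rpl10, Rpl13a or Rpl22, had the highest CPM or lay at the CPM minimum. Of other lists, up to 3 genes with the smallest adjusted p in knockdown against scramble were named. Other members named were chosen after their values were seen. Of the genes this rule names, 2 are not reported here.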

Additional observations from a re-analysis of the deposited data

How the results depend on the processing

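Under the 19 alternatives run, 27 of the 40 members higher in knockdown than in scramble and 3 of the 4 lower ones (Rps15, Rps16 and Rps26) were called in every one; for add-back against scramble these counts were 29 of 35 and 3 of 5. The count higher in knockdown ran from 31 to 42 on leaving out 1 library and from 27 to 48 otherwise, and the count higher in add-back than scramble from 30 to 39 and from 32 to 43. No named member reversed its direction. With library totals 7 members were lower in knockdown and 0 were lower in add-back against knockdown, and 0 were in a fit of the 2 groups alone. On leaving out 1 library, the members lower in add-back against knockdown numbered 0 to 1, and those lower in add-back against scramble 3 to 7. With pseudogene rows pooled the knockdown share of counts was 7.979%. Library totals moved the median of all genes to -0.05 in knockdown against scramble. The causes of these shifts were not tested. Counts per member are high, so spread between cultures and not counting error limits the precision.

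Samples with equal replicate numbers were compared for pairing over all tested genes. Their deviations from the group mean correlated at -0.011 to 0.123, and 1 of 9 pairs was above 0.1, against -0.081 to 0.046 for other pairs, and 5 of 9 libraries correlated best with their own number, so over all genes the numbers were not taken to pair the samples. The ribosomal protein genes did deviate with the number, since 51 of 77 were highest in the library numbered 1 of all 3 groups. With the replicate number as a block, 48 members were higher and 6 lower in knockdown, 0 higher and 3 lower in add-back against knockdown, and 43 higher and 8 lower in add-back against scramble. Over all genes the block gave 10232, 2678 and 9997 calls, against 9643, 1749 and 9352 without it.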
